A study of Mus musculus with 19 samples.

Results

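The collagens, laminins, thrombospondins, hyaluronan receptor, heparan sulfate proteoglycans, lecticans, link proteins and ADAMTS genes of the extracellular matrix were described in single cells of the mouse lateral hypothalamic area. Members were chosen with earlier results of these data known. Choice was by symbol: numbered collagen chains, Thbs, Gpc, Sdc, laminin chains, Adamts and Adamtsl genes, Hapln genes, and Cd44, Vcan, Ncan, Bcan and Acan. Of 52636 genes in the count table this took 44 collagens, 24 ADAMTS genes, 11 laminins, 6 glypicans, 4 each of the syndecans, thrombospondins, lecticans and link proteins, and Cd44. Each of these had at least 1 count in the 4 classes of cells below, and 53 had 100 or more.

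The mice were 7 males of the cross Agrp-IRES-Cre x Ai9, 6 to 8 weeks old, in which Cre in AGRP neurons switches on a red fluorescent reporter. Cell bodies without fluorescence were picked by hand into 19 plates, each plate being 1 sample, and no mouse was treated. Libraries were made by Smart-SCRB, a plate method that counts each captured transcript once through a unique molecular identifier (UMI). Which mouse gave which plate is not stated, so plates may share mice, and p-values computed over plates can be smaller than p-values over mice would be.

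Cells with at least 1000 detected genes were put into classes by their peptide and Gad counts. Hcrt neurons, with Hcrt at 1% or more of counts, make the arousal peptide orexin and numbered 1065. Pmch neurons, with Pmch at 1% or more, make melanin-concentrating hormone and numbered 68. Of the cells below both gates, 327 had at least 5 counts of Gad1 and Gad2 together, genes of GABA synthesis, and are called Gad cells. The other 71 are called remaining cells, and 3 cells that passed both peptide gates were left out.

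Neurons build their matrix from secreted proteins and anchor it through receptors and proteoglycans on their own surface. Collagen IV and laminin form basement membranes, while lecticans bound to hyaluronan by link proteins form the perineuronal nets that surround some neurons. Thrombospondins are secreted matrix proteins that promote synapse formation when released by astrocytes, glypicans and syndecans carry heparan sulfate chains that bind growth factors, and ADAMTS proteases cleave lecticans and other matrix proteins.

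Plates held 44 to 86 cells and 1835641 to 5067927 UMIs in kept cells. The median cell had 45722 UMIs among Hcrt neurons, 59063 among Pmch neurons, 24486 among Gad cells and 24969 among remaining cells. A neuron gate, which asked for at least 5 of 8 pan-neuronal genes and for no list of another cell type above them, left out 33 cells, among them 18 Hcrt neurons, 3 Gad cells and 11 remaining cells. Of those 18 Hcrt neurons, 11 led in oligodendrocyte genes. Of the 71 remaining cells, 8 stood apart, and these were singled out after their values were seen. Their profiles lay nearer to wells labelled qRNA, whose contents are not stated, than to neurons, and they made up 4 of the 9 remaining cells of plate 14 and 4 of the 4 of plate 19. Member genes took 4061 CPM (counts scaled to one total per library) in these wells, against 951 CPM in the other remaining cells. The member tests against remaining cells are therefore given with all cells and for neurons only. Shares of cells are given for remaining neurons, and values from fits without a low-count filter include all cells. Member genes averaged 34.6 UMIs per Hcrt neuron, against 0.87 UMIs per well without a cell, leaving out 1 such well that passed 1000 genes.

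Counts were summed per plate and class and compared with edgeR's quasi-likelihood test, with plate as a block and Benjamini-Hochberg adjustment over all genes tested. Only plates with at least 3 cells of both classes entered, and a member was called at an adjusted p under 0.05. Levels are CPM of a plate's summed counts, fold changes are on the log2 scale with an approximate standard error (SE), and, since cells differ in size and RNA content, a level per UMI does not give transcripts per cell.

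Several members, among them Col18a1 and Thbs3, set Hcrt neurons apart in more than 1 of the comparisons that follow. Thbs2 and Cd44 were picked from these after their values were seen, and the 250 bases before their start sites are shown. The sequences are from RefSeq (GRCm38.p6), and both genes lie on the minus strand, with the Thbs2 window at chr17:14694263-14694512 and the Cd44 window at chr2:102901666-102901915. Capitals mark TATAAA, the TATA box core, read on the opposite strand.
Thbs2: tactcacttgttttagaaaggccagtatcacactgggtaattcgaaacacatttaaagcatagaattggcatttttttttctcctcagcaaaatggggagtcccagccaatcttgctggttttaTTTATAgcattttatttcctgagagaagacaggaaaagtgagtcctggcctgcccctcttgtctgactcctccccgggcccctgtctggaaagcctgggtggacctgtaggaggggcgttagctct
Cd44: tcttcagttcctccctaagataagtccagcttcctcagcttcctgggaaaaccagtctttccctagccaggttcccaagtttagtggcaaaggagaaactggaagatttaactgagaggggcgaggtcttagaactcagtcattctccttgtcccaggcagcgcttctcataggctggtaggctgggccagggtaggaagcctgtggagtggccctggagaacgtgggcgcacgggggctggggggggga
The Thbs2 window holds 1 TATAAA, and the Cd44 window holds none. The motif occurs on either strand in 12.97% of 27025 RefSeq promoter windows of the same length. The homeodomain core TAATTA is in neither window and in 4.90% of all. The GC box GGGCGG is in neither and in 32.9% of all. The cAMP response element TGACGTCA is in neither and in 1.62% of all. A match describes the letters and is not a site in use.

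Hcrt neurons and Gad cells differed in most of the matrix genes that could be tested, in both directions. Hcrt neurons had more transcript of Col18a1, Thbs2, Lamb1, Cd44, Adamtsl1, Col22a1, Thbs3, Gpc3 and Sdc2. Gad cells had more of the collagens Col9a2, Col16a1, Col4a1, Col4a2 and Col11a1 and of the glypican Gpc1. The comparison used 833 Hcrt neurons and 321 Gad cells of 16 plates. Of 21 members tested, 9 were called higher and 6 lower in Hcrt neurons, a total of 15, where 39% of all 9271 genes tested were called. By direction, 21.7% of all genes were called higher and 17.2% lower. The members' median log2 fold change was 0.13 and that of all genes 0.03. The other 81 members were too low to test. Col18a1, with 9 UMIs in Gad cells, passed the low-count filter through its Hcrt counts. Col9a2, with 56 UMIs in Hcrt neurons, passed through its Gad counts. For such members being tested and being called are not independent, so the numbers called depend on the filter. The calls depended on the scaling. Hcrt itself took a median of 13.5% of the counts of a Hcrt neuron, and its part in this was not tested. With library totals alone and no TMM factor, an alternative chosen after seeing the data, the median of all genes moved to -0.38 and 16.8% of calls were higher, against 55.8% with TMM.

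Basement membrane genes went in both directions. Col18a1 encodes collagen XVIII, a basement membrane collagen whose end fragment is endostatin (chromosome 10, 77052178 to 77166548, 44 exons). Its level over plates was lowest 26.6, median 33.7 and highest 53.0 CPM in Hcrt neurons, against lowest 0, median 0 and highest 6.90 CPM in Gad cells. The plates of the 2 classes did not overlap, and 13 of 16 plates had no Col18a1 count in Gad cells. The log2 fold change was 5.51 ± 0.42 (SE, edgeR quasi-likelihood, adjusted p = 1.46e-15), with Hcrt neurons higher in 16 of 16 plates. Lamb1, a laminin beta chain (chromosome 12, 31265234 to 31329644), had a median of 16.01 CPM in Hcrt neurons (10.8 to 33.5) and 0.44 CPM in Gad cells (0 to 17.9). Hcrt neurons were higher in 15 of 16 plates (3.91 ± 0.44, edgeR adjusted p = 1.77e-10). The collagen IV chains were lower in Hcrt neurons. Col4a2 ranged from 2.02 to 14.9 CPM with a median of 8.83 in Hcrt neurons, against 0 to 101.2 CPM with a median of 62.0 in Gad cells, and its log2 fold change was -2.27 ± 0.23 (edgeR adjusted p = 1.73e-11). Col4a1 had a median of 2.29 CPM in Hcrt neurons and 22.6 CPM in Gad cells, and was lower in Hcrt neurons in 16 of 16 plates (-2.87 ± 0.36, edgeR adjusted p = 2.86e-09). These chains are built into 1 collagen IV molecule, and their genes lie head to head on chromosome 8, Col4a1 on the minus strand and Col4a2 on the plus strand, sharing 22 bases at their starts. Endothelial marker genes summed to a median of 9.78 CPM in Hcrt neurons and 12.5 CPM in Gad cells, with ranges of 5.86 to 56.6 and 0 to 122 CPM, and mural markers reached 7.02 and 4.14 CPM at most. Fibroblast markers had medians of 1.40 and 2.98 CPM and reached 5.34 and 35.7 CPM, in the same order of classes. The part of these 3 marker lists in the collagen IV difference, or in that of the other collagens, was not tested.

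Of the other collagens tested, Col9a2, Col16a1 and Col11a1 were lower and Col22a1 was higher in Hcrt neurons. Col9a2, a chain of collagen IX that coats collagen II fibrils in cartilage, had a median of 0.80 CPM in Hcrt neurons (0 to 3.21) and 33.9 CPM in Gad cells (0 to 103.4). It had the largest drop of the tested members, -4.73 ± 0.39 (edgeR adjusted p = 2.07e-14), and was lower in Hcrt neurons in 15 of 16 plates. Col16a1, another fibril-associated collagen, had medians of 3.53 CPM in Hcrt neurons and 28.6 CPM in Gad cells (-3.03 ± 0.39), and Col11a1, a fibrillar collagen, of 6.30 and 16.2 CPM (-1.22 ± 0.36, edgeR adjusted p = 0.0054). Col22a1, a collagen of tissue junctions, had a median of 9.79 CPM in Hcrt neurons and 0 CPM in Gad cells (2.96 ± 0.47), and it was higher in Hcrt neurons in 16 of 16 plates. Col25a1, a membrane collagen of neurons, did not pass the test (-0.29 ± 0.26, edgeR adjusted p = 0.403).

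**Figure D1:**
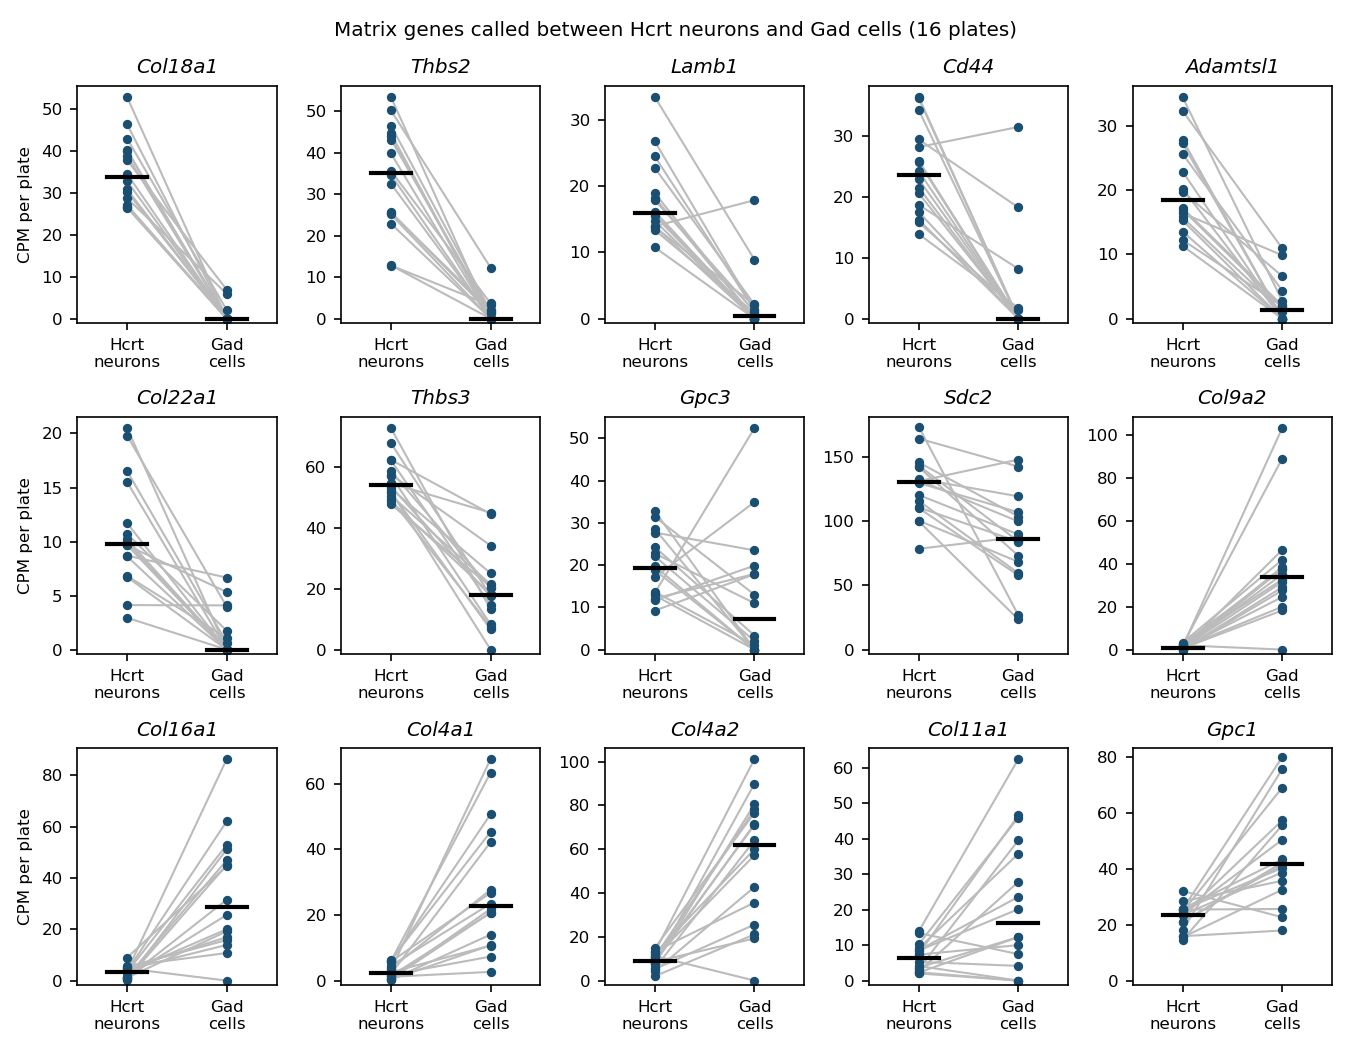
Level in CPM (vertical axis, from 0) of the 15 matrix genes called between Hcrt neurons (left) and Gad cells (right). Each point is a plate, grey lines join the classes of a plate and black bars are medians over 16 plates. Col18a1, Thbs2, Adamtsl1 and Thbs3 plates do not overlap between classes, while Gpc3, Sdc2, Col11a1 and Gpc1 plates do.

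Both thrombospondins that could be tested were higher in Hcrt neurons. Thbs2 encodes a secreted thrombospondin that binds cell surface receptors and proteases (chromosome 17, 14665500 to 14694235, 21 exons). It was lowest at 12.8, median 35.1 and highest 53.4 CPM in Hcrt neurons, against lowest 0, median 0 and highest 12.3 CPM in Gad cells. The plates did not overlap, and the log2 fold change was 4.66 ± 0.38 (edgeR adjusted p = 1.04e-14). Thbs3, a family member that assembles into larger multimers (chromosome 3, 89215180 to 89226837), was lowest at 47.7, median 54.1 and highest 72.8 CPM in Hcrt neurons, against lowest 0, median 18.1 and highest 45.0 CPM in Gad cells. Its log2 fold change was 1.95 ± 0.20 (edgeR adjusted p = 1.95e-11), again with no overlap. Thbs3 shares 318 exon bases with Mtx1 on the opposite strand, and whether counting used strand is not given in the sources used here. Mtx1 itself had a log2 fold change of -0.09 ± 0.17 (edgeR adjusted p = 0.736).

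The surface receptors and proteoglycans split by gene. Cd44, the receptor for hyaluronan (chromosome 2, 102811141 to 102901665, 19 exons), had a median of 23.6 CPM in Hcrt neurons (13.9 to 36.4) and 0 CPM in Gad cells (0 to 31.5). Hcrt neurons were higher in 15 of 16 plates, and 11 plates had no Cd44 count in Gad cells (3.66 ± 0.48, edgeR adjusted p = 2.17e-08). Gpc3, an X-linked glypican anchored to the membrane by a lipid (52272426 to 52613950), had a median of 19.3 CPM in Hcrt neurons (9.24 to 32.8) and 7.15 CPM in Gad cells (0 to 52.4). Its plates overlapped widely, Hcrt neurons were higher in 11 of 16, and the call (1.32 ± 0.43, edgeR adjusted p = 0.0138) was lost without the plate block (0.81) and with library totals alone (0.92). Sdc2, a membrane-spanning syndecan, was lowest at 78.3, median 130.2 and highest 173 CPM in Hcrt neurons, against lowest 23.4, median 85.8 and highest 148 CPM in Gad cells (1.01 ± 0.13, edgeR adjusted p = 1.41e-08). Gpc1, a glypican of adult neurons, was lower, with medians of 23.5 CPM in Hcrt neurons and 41.8 CPM in Gad cells (-0.60 ± 0.20, edgeR adjusted p = 0.0149), and 3 alternatives ended that call. Sdc3 and Gpc6 gave 0.13 ± 0.13 and -0.37 ± 0.28 and did not pass, and Sdc3 turned to -0.28 with library totals alone.

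Of the lecticans and link proteins, Hapln4 and Ncan could be tested. Hapln4, a link protein of perineuronal nets (chromosome 8, 70083457 to 70090862), had a median of 67.8 CPM in Hcrt neurons (46.6 to 78.9) and 105.3 CPM in Gad cells (39.7 to 172). With TMM it did not pass (-0.15 ± 0.13, edgeR adjusted p = 0.396), but with library totals alone Hapln4 was called lower (-0.56). Ncan, the lectican neurocan, whose gene lies 2222 bases beyond Hapln4 on the opposite strand, gave 0.43 ± 0.36 (edgeR adjusted p = 0.374). Vcan, Bcan, Acan, Hapln1, Hapln2 and Hapln3 were too low to test. Of the ADAMTS genes, Adamtsl1, an ADAMTS-like protein that lacks the protease domain, had a median of 18.5 CPM in Hcrt neurons (11.3 to 34.5) and 1.41 CPM in Gad cells (0 to 10.97), with no overlap (3.27 ± 0.38, edgeR adjusted p = 4.72e-10). Adamts10, a protease of the microfibril system, did not pass (-0.52 ± 0.35).

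**Figure D2:**
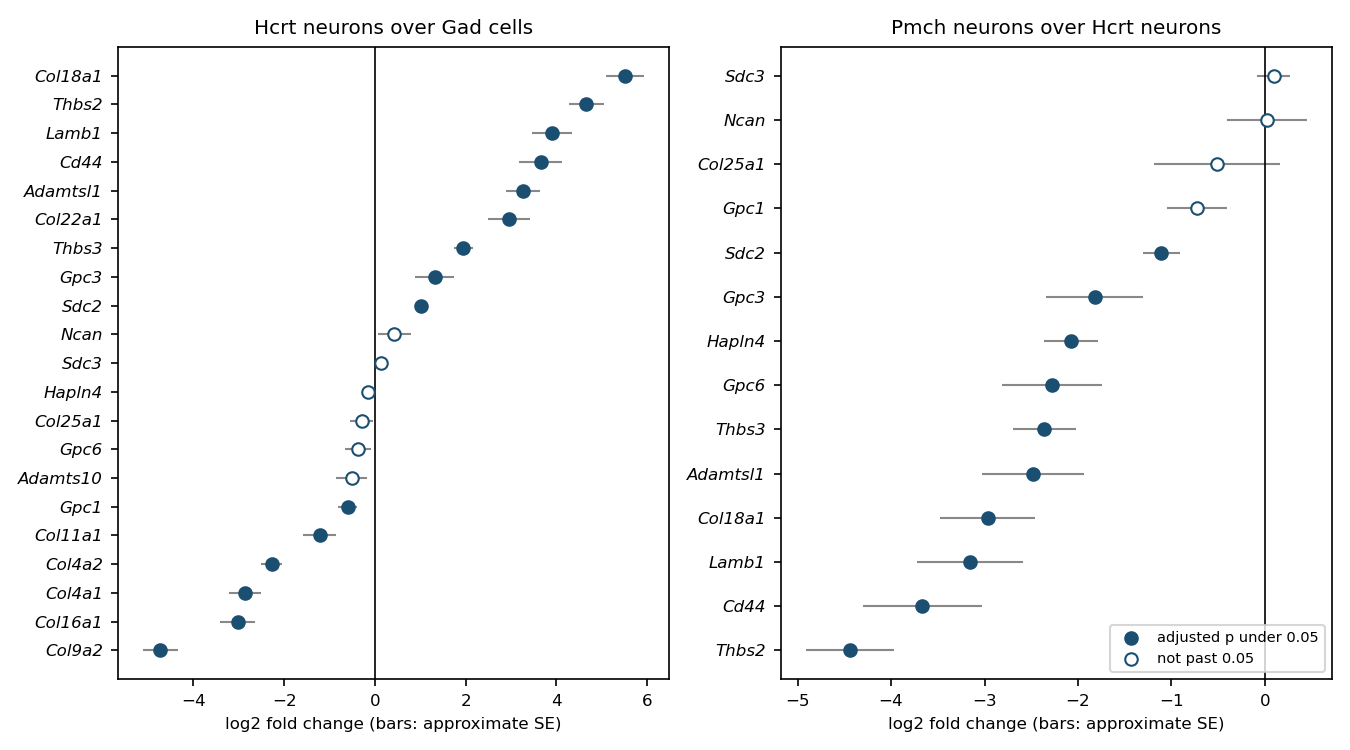
Log2 fold change (horizontal axis) of each member tested in Hcrt neurons over Gad cells (left, 21 genes) and Pmch neurons over Hcrt neurons (right, 14 genes), with bars of 1 approximate SE. Filled points passed an adjusted p of 0.05. Values run from Col18a1 at 5.51 to Col9a2 at -4.73 on the left and from Sdc3 at 0.09 to Thbs2 at -4.44 on the right.

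Other matrix pathway genes were also called in both directions between Hcrt neurons and Gad cells. Of all 9271 genes tested, 39% were called, 21.7% higher and 17.2% lower. List counts near that share are no result about the list. Of 29 matrix receptors, 11 were tested, 4 were higher and 6 lower in Hcrt neurons. The higher ones were Cd47 (1.48 ± 0.07), Cacna2d1 (2.60 ± 0.13) and Cd36 (5.40 ± 0.55), which bind thrombospondins, and Itgb1 (1.62 ± 0.16), the common beta integrin chain. The lower ones were Lrrtm4 (-2.06 ± 0.27), a synaptic partner of glypicans, Dag1 (-0.81 ± 0.24), which encodes dystroglycan, the lipoprotein receptor Lrp1 (-0.73 ± 0.16), and the receptor phosphatases Ptprf (-0.71 ± 0.08), Ptprd (-0.64 ± 0.21) and Ptprs (-0.32 ± 0.07). These 6 were named after their values were seen. The median over the 11 was -0.32. Of 9 other matrix glycoproteins tested, 2 were higher and 5 lower, with Ecm1 at 2.87 ± 0.44 and Sparcl1, which encodes hevin, at -3.93 ± 0.22. Of 24 genes of glycosaminoglycan synthesis and editing, 1 was higher and 3 lower, a smaller share than among all genes. The higher one was Sulf2, which removes sulfate groups from heparan sulfate outside the cell (3.36 ± 0.26), and the lower ones were the heparan sulfotransferases Hs6st2 (-6.31 ± 0.36), Hs3st4 (-3.14 ± 0.28) and Hs2st1 (-1.78 ± 0.24). Of 11 collagen-processing genes, 4 were higher and 1 lower, with P4hb at 0.97 ± 0.10, and of 7 proteases and inhibitors, 1 was higher and 2 lower, with Mmp17, a membrane metalloprotease, at -3.72 ± 0.31. Median log2 fold changes of these lists were -0.42, -0.20, 0.76 and -0.16, in that order.

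Most matrix genes that could be tested were lower in Pmch neurons than in Hcrt neurons. Thbs2, Cd44, Lamb1, Col18a1, Adamtsl1, Thbs3, Gpc6, Hapln4, Gpc3 and Sdc2 were all lower in Pmch neurons. The comparison used 61 Pmch neurons and 756 Hcrt neurons of 13 plates. Of 14 members tested, 10 were called lower and 0 higher, where 30.6% of all 7796 genes tested were called, 17.5% lower and 13.2% higher. At an unadjusted p under 0.05, 11 passed, and DESeq2 called 0 higher and 11 lower. Of all 7796 genes, DESeq2 called 1107 higher and 1730 lower. Members such as Thbs2, with 6 UMIs in Pmch neurons, passed the low-count filter through their Hcrt counts, so the split between directions depends on the filter. With no filter, 3 members were called higher and 22 lower, and Col8a1 and Adamts5, among the 3, are described further on. The share of all genes called with no filter is not given here, so these counts have no background beside them. The members' median log2 fold change was -2.18 and that of all genes -0.11. This comparison shares its Hcrt neurons with the one against Gad cells, so the values of one are not separate evidence for the other.

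Thbs2 was lowest 0, median 0 and highest 7.52 CPM in Pmch neurons, against lowest 12.8, median 35.6 and highest 53.4 CPM in Hcrt neurons. No plate overlapped, and the log2 fold change was -4.44 ± 0.48 (edgeR adjusted p = 6.03e-10). Thbs3 was lowest 0, median 7.47 and highest 52.1 CPM in Pmch neurons, against lowest 47.7, median 54.7 and highest 67.8 CPM in Hcrt neurons (-2.36 ± 0.34, edgeR adjusted p = 3.35e-07), and Mtx1 gave 0.27 ± 0.21. Hapln4, which did not pass between Hcrt neurons and Gad cells, separated these classes. It was lowest 0, median 14.9 and highest 57.4 CPM in Pmch neurons, against lowest 59.7, median 70.0 and highest 81.7 CPM in Hcrt neurons, with no overlap (-2.07 ± 0.28, edgeR adjusted p = 1.62e-07). Ncan had medians of 12.8 CPM in Pmch neurons and 9.63 CPM in Hcrt neurons and did not pass (0.02 ± 0.43).

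Cd44 had a median of 0 CPM in Pmch neurons, with 11 of 13 plates at 0, and 20.6 CPM in Hcrt neurons (-3.67 ± 0.64, edgeR adjusted p = 1.22e-05). Plate 18 held 15 of the 16 Cd44 UMIs of the compared Pmch neurons, and without it the log2 fold change was -5.97, resting on 1 UMI. Of the 17 Cd44 UMIs in all Pmch neurons, 11 were in 1 cell. Col18a1 fell to a median of 0 CPM (0 to 37.9) in Pmch neurons, against 32.9 CPM (26.6 to 53.0) in Hcrt neurons (-2.97 ± 0.51), and Lamb1 to 0 CPM (0 to 14.3) against 15.8 CPM (10.8 to 33.5) (-3.16 ± 0.56). Both were lower in nearly all plates, 13 of 13 for Col18a1 and 12 of 13 for Lamb1. Among the glypicans, Gpc6 was -2.28 ± 0.54 and Gpc3 -1.82 ± 0.52 (edgeR adjusted p = 8.60e-04 and 0.0058), while Gpc1 did not pass (-0.72 ± 0.32, edgeR adjusted p = 0.0864). Adamtsl1 gave -2.48 ± 0.55. Of the syndecans, Sdc2 had a median of 50.2 CPM in Pmch neurons and 133 CPM in Hcrt neurons (-1.11 ± 0.20), and Sdc3 medians of 82.1 and 76.5 CPM (0.09 ± 0.18, not past).

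In the pathway lists, 2 of 10 receptors tested were higher and 2 lower in Pmch neurons. Ptprd (1.74 ± 0.23), a receptor phosphatase, and Lrrtm4 (2.08 ± 0.34) were higher, and Cd47 (-1.84 ± 0.09) and Ptprf (-0.50 ± 0.17) lower. Of 19 glycosaminoglycan genes, 4 were higher and 2 lower, with Sulf2 at -4.04 ± 0.35. The collagen-processing list had 2 higher and 3 lower of 6, other glycoproteins 1 and 1 of 6, and proteases 1 and 0 of 5. Of all 7796 genes tested, 30.6% were called, 13.2% higher and 17.5% lower. List counts near that share, such as those of the glycosaminoglycan genes, are no result about the list.

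With TMM, Thbs2 and Thbs3 were called higher in Hcrt neurons than in remaining cells, but several alternatives ended these calls. Values also changed with whether the wells nearer to the qRNA wells were counted. With all cells, 472 Hcrt neurons and 59 remaining cells of 10 plates were compared, and 2 of 14 members were called higher and 0 lower, where 6.98% of all 7554 genes were called, 6.27% higher and 0.702% lower. At an unadjusted p under 0.05, 5 members passed, and DESeq2 called 3 higher and 1 lower. Of all 7554 genes, DESeq2 called 402 higher and 278 lower. The median of all genes was 0.28 and that of the members 0.83. Size factors by relative log expression moved the median of all genes to 0.01 and left no member called, and the share of calls that were higher was 89.9% with TMM, 70.9% with those factors, 59.1% with DESeq2 and 39.7% with library totals alone. With neurons only (408 Hcrt neurons and 48 remaining cells of 9 plates), 4 of 13 members were called higher and 0 lower, where 11.1% of 7357 genes were called, 9.13% higher and 1.96% lower.

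With all cells, Thbs2 was lowest 12.8, median 41.5 and highest 53.4 CPM in Hcrt neurons, against lowest 0, median 0 and highest 116.8 CPM in remaining cells. The highest remaining value was plate 19, where each remaining cell lay nearer to the qRNA wells. The log2 fold change was 2.45 ± 0.69 (edgeR adjusted p = 0.0199), and 5.41 ± 0.99 with neurons only, where the 48 remaining neurons of the compared plates had 1 Thbs2 UMI. All 60 remaining neurons together had 3. Leaving out plate 3, 4, 5 or 18 ended the call with all cells, with values of 2.17 to 2.37, and without plate 14 or 19 the value was 3.09 or 3.28. Cd44 missed the threshold with all cells (2.45 ± 0.81, edgeR adjusted p = 0.0574). With neurons only it had 507 UMIs in Hcrt neurons and 0 in remaining neurons of the compared plates, which makes it at least 9.65-fold higher against a floor of 3 counts over the group, and plates did not overlap. On a plate not compared, 1 remaining neuron had 2 Cd44 UMIs. Thbs3 gave 1.96 ± 0.57 with all cells and 1.62 ± 0.52 with neurons only (edgeR adjusted p = 0.0235 and 0.0280), and leaving out plate 5, 8, 11 or 18 ended the call with all cells, at 1.71 to 1.86. Col18a1 was not called with all cells (1.44 ± 0.59, edgeR adjusted p = 0.147). It was called with neurons only and without the wells nearer to the qRNA wells (1.98 ± 0.63 and 2.04 ± 0.62, edgeR adjusted p = 0.0246 and 0.0170). Gpc3 gave 0.95 ± 0.62 with all cells and 0.62 ± 0.64 with neurons only, and Hapln4 0.08 ± 0.38 and -0.18 ± 0.33, and neither passed. Markers of other cell types were high on some plates. The oligodendrocyte list reached 10568 CPM in remaining cells and 1423 CPM in Hcrt neurons, with medians of 109.5 and 61.1 CPM. The astrocyte list reached 448 and 27.9 CPM, and the oligodendrocyte precursor list 390.02 and 24.7 CPM, in that order of classes. Mural and fibroblast lists summed to a median of 0 and 6.3 CPM in remaining cells but reached 428 and 642 CPM at most, against at most 5.28 and 5.34 CPM in Hcrt neurons. Their part in these values was not tested.

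**Figure D3:**
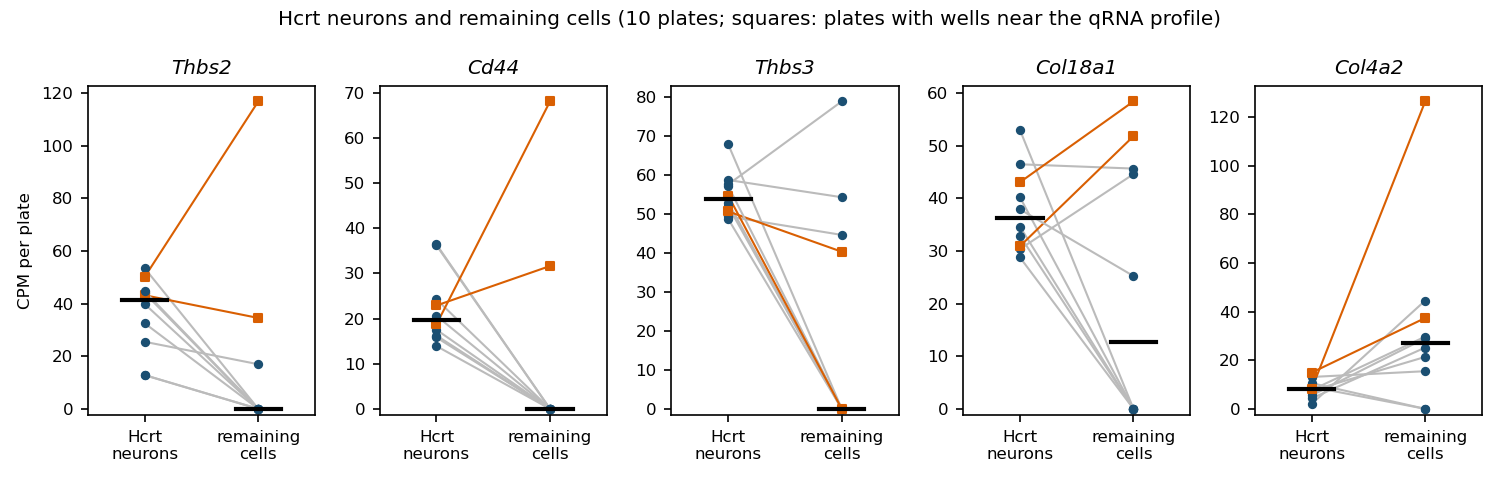
Level in CPM (vertical axis, from 0) of 5 matrix genes in Hcrt neurons (left) and remaining cells (right) of 10 plates. Each point is a plate, lines join the classes of a plate, black bars are medians, and orange squares mark plates 14 and 19. Plate 19 is the highest remaining value for Thbs2 (116.8 CPM), Cd44 (68.1 CPM) and Col4a2 (127 CPM).

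Of the pathway lists with all cells, 2 of 10 receptors were higher in Hcrt neurons than in remaining cells, Cd47 (1.59 ± 0.23) and Cacna2d1 (1.19 ± 0.32). Pcolce2, which aids collagen maturation (3.37 ± 0.85), and Sulf2 (3.10 ± 0.55) were the only called genes among 6 of collagen processing and 17 of glycosaminoglycan synthesis, and Sparcl1 (-4.25 ± 0.39) the only one among 7 other glycoproteins. None of 4 proteases passed. With all cells, 6.98% of all 7554 genes tested were called, 6.27% higher and 0.702% lower. With neurons only, 3 of 9 receptors, 2 of 6 collagen-processing genes, 1 of 4 proteases and 1 of 15 glycosaminoglycan genes were higher in Hcrt neurons, and 2 of 7 other glycoproteins were lower. Of all 7357 genes tested with neurons only, 11.1% were called, 9.13% higher and 1.96% lower.

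No matrix gene that could be tested passed between Gad cells and remaining cells. The comparison had 257 Gad cells and 59 remaining cells of 10 plates, and 0 of 5 members were called by edgeR or DESeq2, where 0.799% of 4633 genes were called, 0.648% higher and 0.151% lower. At an unadjusted p under 0.05, Col4a2 (1.15 ± 0.48) and Sdc2 (-0.90 ± 0.43) passed. Gpc1 (0.25 ± 0.50), Hapln4 (0.23 ± 0.36) and Sdc3 (0.61 ± 0.39) did not. A p above the threshold does not show equal levels. No gene of the 5 pathway lists was called with all cells. With neurons only, 0 of 3 members were called, where 1.17% of genes were called higher and 0.416% lower, and 1 of 6 receptors was called lower.

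The share of cells with a UMI was read after each cell was thinned to 10000 UMIs, which left 1055 Hcrt neurons, 68 Pmch neurons, 316 Gad cells and 57 remaining neurons. Thbs2 was detected in 17.7% of Hcrt neurons (exact 95% interval 15.5 to 20.2), 1.47% of Pmch neurons (0.04 to 7.92), 1.27% of Gad cells (0.35 to 3.21) and 3.51% of remaining neurons (0.43 to 12.1). Without thinning, 28.5% of Hcrt neurons had a Thbs2 UMI. Cd44 was detected in 16.5% of Hcrt neurons (14.3 to 18.9), 1.47% of Pmch neurons, 1.58% of Gad cells and 1.75% of remaining neurons, and in 37.3% of Hcrt neurons without thinning. Gpc3 shares were closer together, at 12.9% of Hcrt neurons (10.9 to 15.1), 8.82% of Pmch neurons (3.31 to 18.2), 7.59% of Gad cells (4.93 to 11.1) and 12.3% of remaining neurons (5.08 to 23.7). Without thinning the Gpc3 share of Hcrt neurons was 24.5%. Col4a2 ran the other way, with 7.01% of Hcrt neurons (5.55 to 8.73), 5.88% of Pmch neurons, 34.2% of Gad cells (29.0 to 39.7) and 21.1% of remaining neurons (11.4 to 33.9). Intervals cover counting error only.

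**Figure D4:**
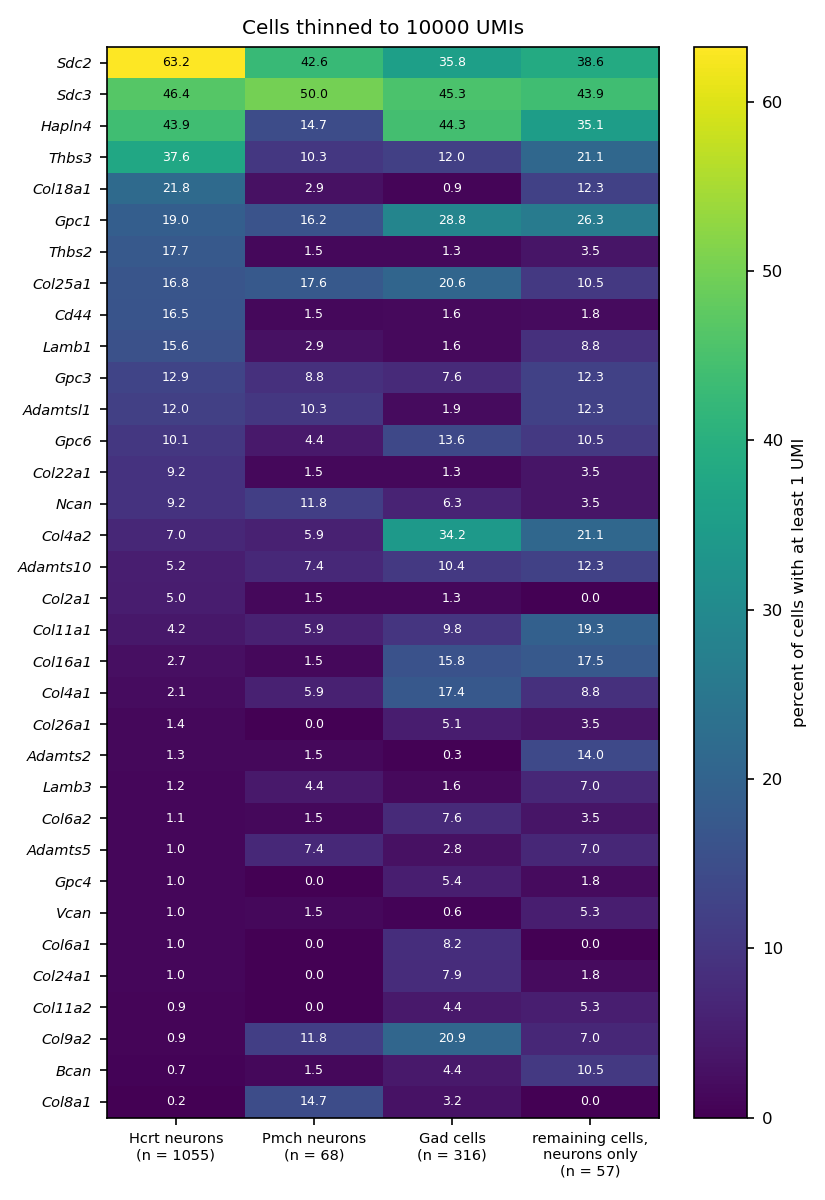
Percent of cells with at least 1 UMI after thinning to 10000 UMIs (colour and printed value), for members at 5% or more in any class (rows) and 4 classes (columns). Sdc2 is highest in Hcrt neurons at 63.2%, Col8a1 is at 14.7% in Pmch neurons against 0.19% in Hcrt neurons, and Thbs2 and Cd44 stay under 5% outside Hcrt neurons.

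Among members too low for the filtered tests, several stood at or near 0 in a class. Their adjusted p-values come from the edgeR fit without a filter on low counts, and those fitted values depend on few counts. Adamts16 and Adamts8, ADAMTS proteases, had 334 and 310 UMIs in Hcrt neurons. Neither had a UMI in Pmch neurons. In the 13 plates compared they were at least 9.85- and 9.09-fold lower in Pmch neurons against a floor of 3 counts over the group, and Lamc1, a laminin gamma chain, at least 5.38-fold lower (edgeR adjusted p = 9.97e-08, 1.67e-07 and 4.35e-05). Against Gad cells, which had 17 and 11 UMIs, Hcrt neurons had more of both proteases (2.38 ± 0.54 and 2.88 ± 0.61, edgeR adjusted p = 1.55e-04 and 4.16e-05). Col17a1, a membrane collagen of epithelial junctions, and Col2a1, the fibrillar collagen of cartilage, had 205 and 356 UMIs in Hcrt neurons and 4 and 24 UMIs in Gad cells (3.36 ± 0.75 and 2.63 ± 0.58).

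Col8a1, a short network-forming collagen known from vessel walls and the cornea, had its largest share of cells in Pmch neurons. It had 81 UMIs in 25 of 68 Pmch neurons, 16 UMIs in 13 of 1065 Hcrt neurons and 49 UMIs in 13 of 327 Gad cells. Over 13 plates its median was 17.02 CPM in Pmch neurons (0 to 34.5) and 0.37 CPM in Hcrt neurons (0 to 1.47), with Pmch neurons higher in 11 plates (5.07 ± 0.61 without the filter). Adamts5, an aggrecanase, had 42 UMIs in 15 Pmch neurons and 24 UMIs in 21 Hcrt neurons (3.43 ± 0.75, edgeR adjusted p = 1.09e-04). Endothelial markers summed to a median of 28.7 CPM (0 to 86.1) in Pmch neurons and 11.1 CPM (5.89 to 56.6) in Hcrt neurons, and mural markers to 0 and 1.89 CPM. Their part in the Col8a1 and Adamts5 values was not tested.

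The counts of Col3a1, Col1a1 and the syndecan Sdc4 in remaining cells came from wells that were not neurons. Col3a1 had 17 UMIs in Hcrt neurons and 219 UMIs in remaining cells, and 0 UMIs in remaining neurons. Col1a1 had 33, 88 and 0 UMIs and Sdc4 13, 62 and 0 UMIs in the same order. Col1a2, the partner chain of Col1a1, had 53 UMIs in Hcrt neurons, 125 UMIs in remaining cells and 9 UMIs in remaining neurons, and 43 UMIs in Gad cells. Adamts2, a procollagen protease, differed from these, with 48 UMIs in remaining cells and 44 of them in 13 remaining neurons, against 80 UMIs in 41 Hcrt neurons. The lecticans Vcan, Bcan and Acan had 49, 42 and 17 UMIs in Hcrt neurons and 30, 36 and 3 UMIs in remaining cells. The link proteins Hapln1, Hapln2 and Hapln3 were found in 15, 44 and 4 Hcrt neurons and in 2, 2 and 0 remaining cells. Without the low-count filter, Hcrt neurons had less Adamts2 and Vcan than remaining cells (-3.15 ± 0.76 and -3.28 ± 0.93, edgeR adjusted p = 0.0021 and 0.0166) and less Bcan than Gad cells (-2.17 ± 0.68, edgeR adjusted p = 0.0133). These fits include all remaining cells, and 16 of the 30 Vcan UMIs of that class were in remaining neurons.

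Within Hcrt neurons the level of each gene varied between plates more for some than for others. Over all 19 plates Thbs2 ran from 12.8 to 53.4 CPM (33.1 ± 12.5, mean and SD), Gpc3 from 9.24 to 32.8 CPM (19.1 ± 7.15) and Cd44 from 13.9 to 36.4 CPM (24.2 ± 7.10). Thbs3, with 56.3 ± 6.66 CPM, and Hapln4, with 67.4 ± 9.28 CPM, varied less for their level. In thinned Hcrt neurons, the tenth of cells with most Thbs2 held 75.9% of its UMIs, for Gpc3 86.8%, for Thbs3 45.8% and for Sdc2 34.8%. That share depends on how many of the cells had a UMI, which was 17.7%, 12.9%, 37.6% and 63.2% in the same order. Ncan, in 9.19% of cells, reached 100%, so these values do not show a gene to be confined to some neurons. Up to 8 Thbs2 UMIs were found in 1 thinned cell.

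No pair of matrix genes was strongly related across Hcrt neurons. Over 18 members detected in at least 5% of 1055 thinned cells, Spearman's rho over 153 pairs ran from -0.10 to 0.10 with a median of 0.0014, and correlations this weak in sparse counts are no finding. The genes most like Thbs2 were Gpc3, Sdc2 and Cd44 (rho 0.08, 0.07 and 0.05 over cells). Those most like Gpc3 were Cd44, Thbs2 and Sdc2 (0.09, 0.08 and 0.05), and those most like Cd44 were Gpc3, Thbs2 and Col22a1 (0.09, 0.05 and 0.04). Of 187 thinned cells with Thbs2, 35 also had Gpc3 (18.7%), against 11.6% of cells without Thbs2. Col18a1 was in 13.4% of cells with Thbs2 and 23.6% of cells without, and Thbs3 in 38.5% and 37.4%. These shares pool the cells of all plates. Within plates, rho between Thbs2 and Gpc3 ran from -0.17 to 0.45 and was positive in 11 of 19.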

How the data were processed

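Counts per gene and well (UMIs) were deposited by the authors as raw counts with no normalization. Per the submitters' processing notes, bcl2fastq 2.20, cutadapt 2.1.0, STAR and STARsolo 2.7.5c, Seurat 2.3.4 and R 3.4.3 were used with build GRCm38; the annotation release, the strand setting and any treatment of doublets are not given in the sources used here. The authors also deposited a table of wells with each well's content, genes detected, total count and the percent of counts on spike-ins, of which the content and the count of genes were used. Every well was matched to its plate through that table. Wells labelled LHA with at least 1000 genes were kept (1534 of 1612), and counts on identifiers other than mouse genes (3.35%) stayed out of library sizes. Coordinates are from GENCODE M21.

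Sums over the cells of a class on a plate were compared in edgeR 4.0.16 (TMM factors, default low-count filter, robust quasi-likelihood fit, plate as block, plates with at least 3 cells of each class) in R 4.3.3, with Benjamini-Hochberg adjustment over all genes tested and a threshold of 0.05. Plate pairs classes here because cells of both were picked into it. Limma 3.58.1 and DESeq2 1.42.0 were used by edgeR and as an alternative. The SE was computed as the absolute log2 fold change over the square root of F. Fits were tested on simulated data that used the same spread for all genes. Changes of 2-fold were recovered in 89% of genes for Hcrt over Gad and 79% for Pmch over Hcrt. Recovery was 9% for Hcrt over remaining and 20% for Gad over remaining. Changes of 4-fold were recovered in 90%, 91%, 72% and 80%, in that order. For shares, cells were thinned to 10000 UMIs, and exact 95% intervals and a floor of 3 counts cover counting error only. No doublet caller was run, and cells passing both peptide gates were left out.

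Members and lists were chosen with earlier results of these data known. Named genes are the members past the threshold (up to 12 per direction), 11 members named whatever the test, and up to 4 called genes per pathway list. Of the members too low to test, some of those with 100 or more counts are named, and others are not. Col3a1, Col1a1, Col1a2, Sdc4, Col8a1, Adamts5, Adamts2 and the cells nearer to the qRNA wells were singled out after their values were seen, as was the choice of 2 promoter windows.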

Additional observations from a re-analysis of the deposited data

Results flagged for a closer look

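In 33 sets of plate values, 4 had a sample far from the others. Chance flags about 1 in 20 independent sets, but these sets share cells and most flags came from the same 4 cells of plate 19. The number flagged can therefore not be set against that rate. In remaining cells, plate 19 was high for Thbs2 at 116.8 CPM (next highest plate 34.5), for Cd44 at 68.1 CPM (next 31.7) and for Col4a2 at 126.5 CPM (next 44.6), with lowest plates at 0. Each of the 4 remaining cells of plate 19 resembled the qRNA wells more than neurons. In Hcrt neurons, among the 10 plates compared with remaining cells, plate 11 was high for Thbs3 at 67.8 CPM, with the next at 58.7 and the lowest at 48.7 CPM.

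Matrix genes were also found in data outside the comparisons. Wells labelled qRNA held 3723 CPM of all members over 68 wells (4817 UMIs), against 1432 CPM in wells without a cell (184 UMIs, 94 of them in 1 well). What the qRNA wells hold is not stated.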

How the results depend on the processing

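No result changed direction while called, and 166 recomputed counts stayed within 1.5 times while 36 did not. For Hcrt neurons over Gad cells, members called higher (9) were 17 with no low-count filter and 2 after thinning to 10000 UMIs, and members called lower (6) were 13 and 1, and 3 with the peptide gate at 0.2% and 10 with library totals alone. For Pmch over Hcrt neurons, lower (10) became 22 with no filter and 2 after thinning, and higher (0) became 3 with no filter, 1 with at least 5 cells and 2 with all 4 classes in 1 fit. Thinning left 5 and 3 members tested. For Hcrt neurons over remaining cells, higher (2) was 0 with size factors by relative log expression, library totals alone, at least 5 cells, the 0.2% gate, the stricter Gad gate or thinning, 1 with no replicate block, 5 with no filter, and 4 for neurons only or without the wells nearer to the qRNA wells. Lower (0) was 1 with DESeq2, library totals alone, at least 5 cells or no replicate block, 12 with no filter and 4 with all classes in 1 fit. For Gad over remaining cells, all classes in 1 fit gave 1 higher and 3 lower, and no filter 3 lower. Leaving out each plate gave 8 to 9 higher and 5 to 6 lower for Hcrt over Gad (Col22a1 fell under the filter without plate 12 or 14, and Col4a1 without plate 14), 0 to 3 higher for Hcrt over remaining, and no change in the other counts. Except where the alternative tests other genes or cells, the cause was not tested. Most of these member counts are given without the share of all genes called, so they show dependence on processing only. Library totals alone and the wells nearer to the qRNA wells were chosen after seeing the data.

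Of the single genes, Gpc1 lost its call with no filter (-0.44), in the joint fit (-0.60) and at the 0.2% gate (-0.74), Col11a1 at that gate (-0.79), and Gpc6 in Pmch neurons with at least 5 cells (-1.77). The replicate block is the plate. Without it Gpc3 and, over remaining cells, Thbs2 lost their calls (0.81 and 1.51). Remaining cells are few, so most members could not be tested there, and a low count does not show that a gene is not expressed.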
